A study of Saccharomyces cerevisiae with 8 samples.

Results

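The comparison described here sets a budding yeast strain with the not1-2 allele against the wild-type reference strain after growth at 37.5°C, the restrictive temperature. It uses 4 of the 8 arrays of the study, chosen by their titles: wild-type replicates 1 and 2 and not1-2 replicates 1 and 2, paired by replicate number. All 9275 probe sets that are not controls belong to it. The other 4 arrays, 2 of an spt3 strain and 2 of a not1-2 spt3 strain, entered the filter on dim probe sets and the estimate of the spread, and their signals are given beside a few results as a description. All strains had 24 h of growth at 30°C in liquid medium rich in glucose, then a move to 37.5°C at an optical density (OD600) of 0.2 and collection at 0.8, so the wild type went through the same shift. The labels name no further allele, marker or mating type of either strain.

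Not1, encoded by CDC39, is the large scaffold of the Ccr4-Not complex, which holds the deadenylases Ccr4 and Pop2 (also called Caf1) and the ubiquitin ligase Not4 (gene MOT2). The complex shortens the poly(A) tails of messenger RNAs, which starts their decay, and it also acts on transcription, in part through the TATA-binding protein. In yeast, mutants of the NOT genes are known for raised transcription from promoters with weak TATA elements and for changes in stress gene expression. The comparison asks which RNAs differ in level when Not1 is impaired at a temperature the mutant does not tolerate.

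Signals are linear array intensities after each array was centred on its median, and replicate 1 is given first throughout. Signals below 1.72, the floor, were set to it. Changes are log2 differences, not1-2 minus wild type, and each change with a standard error (SE) comes from limma with the replicate number as a block, with 2 arrays a strain. Of 9275 probe sets 7043 were tested, of which 5355 name 1 gene. A probe set was called at a Benjamini-Hochberg adjusted p under 0.05 over all 7043, and only called genes are said to have risen or fallen. The array RNA differed in quality: the ratio of 3' to 5' signal of the ACT1 control was 199.1 and 1.88 on the wild-type arrays and 36.8 and 2.10 on the not1-2 arrays. The replicate 1 arrays thus had far higher ratios in both strains, and for ACT1 the wild-type one the highest. The SPT15 control gave 72.5 and 5.30 in wild type against 25.1 and 3.44 in not1-2. The SRB4 control gave 61.5 and 7.01 against 68.8 and 11.6, so there not1-2 replicate 1 was highest. The part of RNA quality in the results below was not tested beyond the fit with the ACT1 ratio as a covariate. The labels do not state that the replicates came from separate cultures; if they did not, the p-values reflect technical spread only.

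Among the 7043 probe sets 140 were called, 1.99% of those tested: 73 were higher in not1-2 (1.04%) and 67 lower (0.951%). All 140 moved the same way in both replicate pairs, and 130 of them differed by at least 2-fold in each pair. The choice by this test favours both, so neither is separate support. Over all 7043 tested, 66.7% had the same sign in the pairs, and 232 were higher and 256 lower by at least 2-fold in both. The median wild-type log2 signal was 4.56 for the called probe sets that rose and 7.75 for those that fell, a difference that the choice by change favours, since over all tested probe sets above and below wild type it was 5.16 and 5.76. Of the higher ones 58 name 1 gene, all protein-coding, and of the lower ones 51 name 1 gene, 39 protein-coding and 12 tRNA. The rest name several genes (8 higher and 4 lower) or none (7 and 12) and are not named here. Mating-type genes make up 11 of the 109 single genes and are described apart. The spread sets these counts: without the replicate block only 3 probe sets were called, those of MFA2, MF(ALPHA)1 and HMRA1, and a fit on the 4 arrays alone called 626. Leaving out wild-type replicate 1, wild-type replicate 2, not1-2 replicate 1 or not1-2 replicate 2 left 4, 12, 3 and 3 calls, leaving out an spt3 array gave 304 and 310, a double-mutant array 90 and 91, and the ACT1 ratio as a covariate gave 74.

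**Figure D1:**
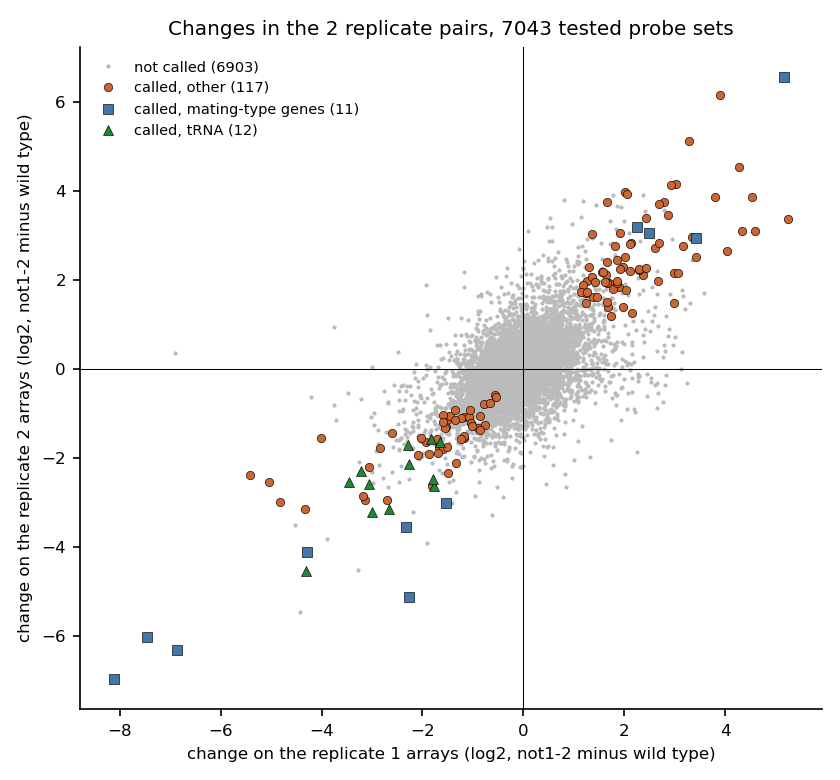
Each point is 1 of the 7043 tested probe sets, with its change (log2, not1-2 minus wild type) on the replicate 1 arrays on the x axis and on the replicate 2 arrays on the y axis. The 140 called probe sets lie in the lower left and upper right, with the mating-type genes (squares) at both extremes and the 12 called tRNA probe sets (triangles) at the lower left.

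Mating-type genes gave the largest changes. The a-specific genes, which haploid a cells use to make and send a-factor and to sense alpha-factor, were lower in not1-2 in 7 of 7 cases, 6 of them called. The alpha-specific genes, their counterparts in alpha cells, were higher in 5 of 5, 4 of them called. In these 12 genes no not1-2 array overlapped a wild-type array, as in 2260 of all 7043 tested probe sets.

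MFA2, 1 of the 2 a-factor genes, gave 4994 and 1455 in wild type against 18.1 and 11.6 in not1-2. Its change was -7.54 ± 0.44 (SE), 187-fold lower, adjusted p = 0.00012. MFA1, the other a-factor gene, fell from 4016 and 740.02 to 34.7 and 9.27, a change of -6.59 ± 0.38. Both a-factor genes thus had bright signals in wild type and dim ones, still above the floor, in not1-2. AGA2, the binding subunit of a-agglutinin, changed by -4.20 ± 0.41, and STE2, the alpha-factor receptor, by -3.70 ± 0.70. BAR1, the protease that degrades alpha-factor, changed by -2.94 ± 0.34, and STE6, the a-factor exporter, by -2.28 ± 0.43. In STE2 the pairs differed most, at -2.27 and -5.13. ASG7, which acts in the response after mating, gave 23.7 and 9.63 against 4.95 and the floor and was not called (-2.37 ± 0.68, adjusted p = 0.13).

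On the alpha side MF(ALPHA)1, the main alpha-factor gene, gave 14.997 and 17.2 in wild type against 536.1 and 1624 in not1-2. Its change was 5.86 ± 0.49, 58.1-fold higher, adjusted p = 0.0018. AFB1, an a-factor barrier protein, rose by 3.18 ± 0.41, SAG1, the alpha-agglutinin, by 2.77 ± 0.39, and STE3, the a-factor receptor, by 2.72 ± 0.42. The minor alpha-factor gene MF(ALPHA)2 gave 11.3 and 8.31 against 60.05 and 97.9, with adjusted p = 0.075. HMRA1, whose probe set also reads the a1 gene of an active MATa locus, gave 301.6 and 113.1 in wild type and was at the floor on both not1-2 arrays, at least 107-fold lower. Its change of -6.74 became -4.72 with the floor at the 25th percentile. HMRA1 has another 2 probe sets, both far dimmer, and the alpha1 and alpha2 genes and HMRA2 have no probe set of their own.

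Genes that both haploid types express showed no called change. Of 10 haploid-specific genes, such as the G-protein and kinase genes of the pheromone pathway, 0 were called (background 1.99% in either direction). Their median change was 0.00, with 5 above and 5 below wild type. The smallest p among them was that of STE18, the G-protein gamma subunit, at 127.6 and 24.9998 against 179.5 and 101.5, where the strains overlapped (adjusted p = 0.20). Of 17 tested pheromone-induced genes 0 were called. At the background of 1.99%, 0 calls in lists of these sizes does not set them apart from all tested probe sets. PRM1, which acts in membrane fusion at mating, had the smallest p, with signals of 21.3 and 9.50 against 65.1 and 43.2 (1.90 ± 0.59, adjusted p = 0.15). The labels do not give the mating types, so a difference of mating type between the strains and an effect of not1-2 on these genes cannot be told apart. The spt3 and double-mutant arrays stood with not1-2: the a-specific median signal was 105.5 and 126.8 in wild type, 9.88 and 9.27 in not1-2, 6.26 and 4.96 in spt3 and 6.92 and 3.06 in the double mutant.

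**Figure D2:**
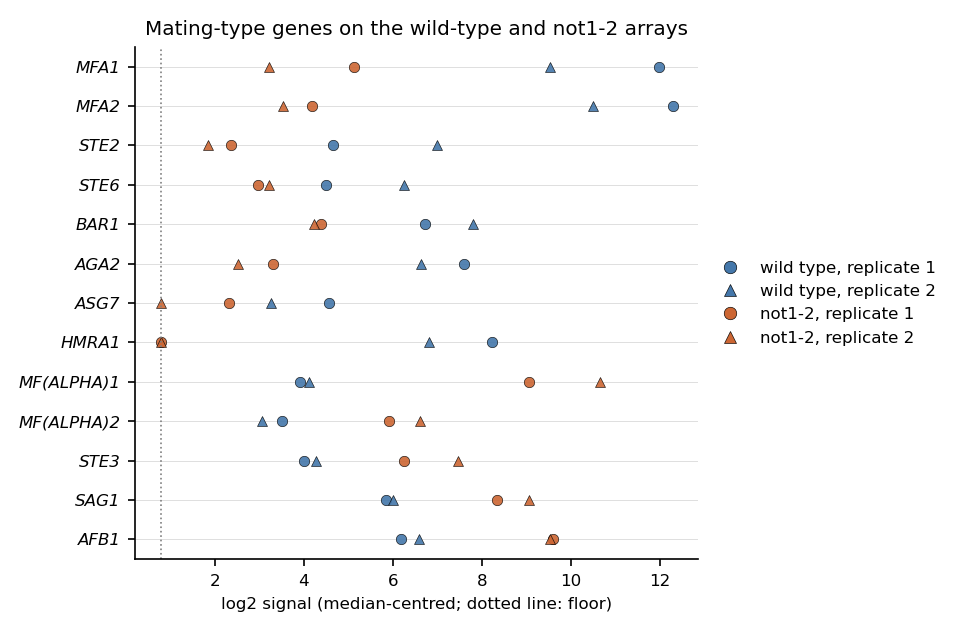
Log2 signals of the a-specific genes (MFA1 to ASG7), HMRA1 and the alpha-specific genes (MF(ALPHA)1 to AFB1) on the 2 wild-type and 2 not1-2 arrays, with 1 symbol an array and the floor as a dotted line. In each of the 13 genes shown the 2 strains do not overlap: wild type is higher in the upper 8 and not1-2 in the lower 5.

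The mutated gene and its partners showed no called change. CDC39 itself gave 18.1 and 23.4 in wild type against 14.3 and 27.4 in not1-2, a change of -0.06 ± 0.43 with overlapping strains. The allele is not described in the labels, and a level of RNA does not check it. Of 9 Ccr4-Not subunit genes 0 were called (background 1.99% in either direction), and the median was -0.01. The widest difference was in MOT2, the ubiquitin ligase, at 19.1 and 20.3 against 8.17 and 12.01 (-0.99 ± 0.42, adjusted p = 0.25). NOT5 gave 32.4 and 51.0 against 57.7 and 70.4 (0.65 ± 0.35), and CDC36, NOT3, CCR4, POP2, CAF40 and CAF130 lay between -0.29 and 0.26. SPT3 gave 25.4 and 15.5 against 30.1 and 22.9 (0.40 ± 0.45, adjusted p = 0.68). TRP1, a common strain marker, gave no signal above the floor in either strain. On the spt3 arrays TRP1 gave 45.0 and 56.5 and on the double-mutant arrays 52.0 and 36.2. Of the genes of SAGA (18 tested), of the TATA-binding protein and TFIID (16) and of other mRNA decay factors (24), 0 were called. At the background of 1.99%, lists of these sizes would hold few or no calls, so 0 calls does not show that these genes were unaffected. EDC2 and EDC3, which aid removal of the mRNA cap, had the smallest p among the decay factors and went opposite ways, at 0.98 ± 0.32 and -1.10 ± 0.33.

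Outside the mating lists 98 genes were called, 54 higher and 44 lower. They were sorted into 48 functional lists, 21 of which held a called gene: 15 lists had higher calls alone, 5 lower calls alone and the heat shock list both. The lists account for 30 of the 54 higher genes and for 9 of the 44 lower genes. Over all 5656 genes on the array the median change was -0.04, with -0.05 and -0.02 in the pairs. Of these genes 46.3% lay above wild type and 53.1% below, and 30.0% lay above and 35.4% below in both pairs. Of all tested probe sets 1.04% were called higher and 0.951% lower. The list counts below are to be set beside these shares. Centring removed a mean shift of 0.13 between the strains, so without it most list medians lie higher by about that much.

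**Figure D3:**
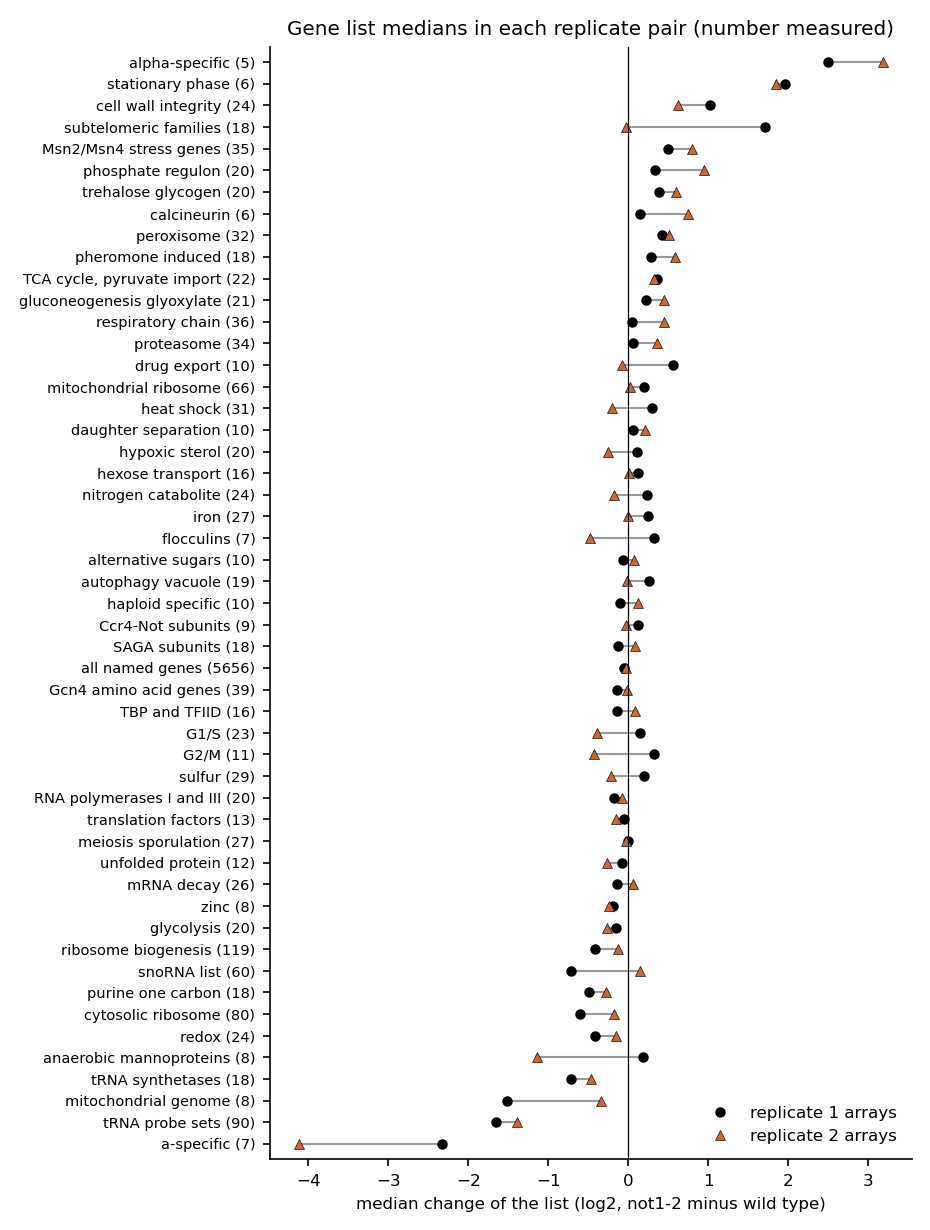
Median change (log2, not1-2 minus wild type) of each gene list with at least 5 measured genes, and of the 90 tRNA probe sets, on the replicate 1 arrays (circles) and the replicate 2 arrays (triangles), ordered by the median over both pairs. The stationary phase, cell wall and Msn2/Msn4 lists lie right of 0 in both pairs, the tRNA probe sets and tRNA synthetases left of 0 in both, and subtelomeric families, snoRNA and anaerobic mannoproteins differ between the pairs.

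Part of the general stress genes rose. Msn2 and Msn4 are the transcription factors that turn on a common set of genes under many stresses, and 7 of their 34 tested targets were called higher and 0 lower (background 1.04% and 0.951%). The median over the 35 on the array was 0.74, or 0.50 and 0.80 in the pairs, and 26 of 35 were above wild type in both pairs. HSP12, a small membrane-protecting heat shock protein, gave 67.7 and 70.7 in wild type against 464.7 and 949.1 in not1-2 (3.26 ± 0.49, 9.60-fold, adjusted p = 0.017). XBP1, a repressor made under stress, rose from 3.26 and 3.70 to 23.7 and 40.9, 8.96-fold. Its change of 3.16 became 2.15 with the floor at the 25th percentile. DDR2, a stress gene of unknown biochemical role, gave 95.4 and 93.7 against 415.5 and 427.6, with little spread in either strain (2.16 ± 0.29). TMA10 rose by 2.35 ± 0.30 and CRG1, a methyltransferase, by 2.91 ± 0.52, and RTC3 and NQM1 were the other two called. All 7 had both not1-2 arrays above both wild-type arrays, as had 72 of all 73 higher calls. On the spt3 and double-mutant arrays HSP12 lay between 121.9 and 366.5.

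Among genes of stationary phase 3 rose. SPG4, needed for survival at high temperature in stationary phase, gave 10.6 and 4.32 in wild type against 147.9 and 62.9 in not1-2, and its change of 3.83 was nearly equal in the pairs, at 3.80 and 3.86 (SE 0.35, adjusted p = 0.0029). SNZ1 and SNO1 are neighbouring genes for vitamin B6 synthesis that yeast turns on after growth ceases. SNZ1 rose from 28.1 and 22.7 to 299.7 and 129.3, and SNO1 from 12.7 and 9.37 to 81.6 and 66.6, 6.76-fold. These 3 were the calls among 5 tested stationary phase genes (background 1.04% higher), with a list median of 1.99. The near-identical SNZ and SNO copies have no probe set of their own. On the other strains' arrays SPG4 lay between 7.10 and 11.02 and SNZ1 between 18.6 and 36.7, against the wild-type signals above.

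Storage carbohydrate genes lay above wild type with 1 call. Of 20 genes for trehalose and glycogen 17 were above wild type, with a median of 0.58. The call was GPH1, glycogen phosphorylase, which went from 27.7 and 19.0 to 82.6 and 86.0 (1.88 ± 0.32, adjusted p = 0.027).

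Some cell wall genes rose. The cell wall integrity pathway answers wall stress, heat included, and raises genes for wall proteins. Of 24 such genes 3 were called higher and 0 lower (background 1.04% and 0.951%), and the median was 0.85 (1.02 and 0.62). Of the 24, 22 were above wild type and 19 in both pairs, against 46.3% and 30.0% of all genes. PIR3, a wall protein linked to glucan, gave 23.0 and 23.5 in wild type against 224.8 and 816.7 in not1-2, 18.4-fold higher (adjusted p = 0.012), and between 79.3 and 162.8 on the spt3 and double-mutant arrays. PST1, a wall protein made when the wall is damaged, rose from 406.4 and 354.9 to 1116 and 1087, 2.90-fold. YPS3, a surface protease, rose by 1.62 ± 0.33. FLO1, a flocculin that makes cells clump, went from the floor and 5.37 to 65.7 and 55.4, and HPF1, a mannoprotein, from 70.0 and 111.8 to 710 and 873.5 (3.15 ± 0.43). FLO1 has close relatives that may share its probe sequences, and its list median was 0.05, with 1 call among 6 tested.

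Genes for growth on carbon sources other than glucose rose in small numbers. Of 19 tested genes of gluconeogenesis, the glyoxylate cycle and carboxylate uptake 3 were called higher and 0 lower (background 1.04% and 0.951%). PCK1, the committed enzyme of gluconeogenesis, gave 229.7 and 109.5 against 524.6 and 404.7 (1.54 ± 0.31). MLS1, malate synthase of the glyoxylate cycle, rose from 1.99 and 1.78, just above the floor, to 16.7 and 7.88. It was not called with the floor at the 25th percentile. JEN1, the lactate and pyruvate importer, rose from 6.38 and 4.70 to 28.1 and 33.3. The list median was 0.28, far below the changes of these 3. MPC3, the pyruvate carrier subunit used in respiratory growth, rose from the floor and 2.36 to 39.9 and 34.6, at least 18.4-fold (its change was 2.40 with the floor at the 25th percentile), and was the 1 call among 22 genes of pyruvate import and the tricarboxylic acid cycle. HXT5, a hexose transporter made at slow growth, rose from 14.8 and 6.32 to 77.2 and 27.4 (2.25 ± 0.44). ECI1, an enzyme of fatty acid oxidation in peroxisomes, rose by 1.53 ± 0.30, the 1 call among 30 peroxisomal genes, of which 25 of the 32 on the array lay above wild type.

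Nuclear genes of the respiratory chain showed no call. Of these 36 genes 29 were above wild type, with a median of 0.25 (0.05 and 0.45) and 0 calls. The smallest p belonged to NDE2 and NDE1, the external NADH dehydrogenases: NDE2 gave 3.04 and the floor against 8.94 and 9.54 (adjusted p = 0.085), and NDE1 gave 536.1 and 480.2 against 842.5 and 1054 (adjusted p = 0.15). In glycolysis 0 of 20 genes were called and the median was -0.22, which quantile normalization turned to 0.08. The 2 lowest p were those of isozymes that lay above wild type, TDH1 (1.39 ± 0.31, adjusted p = 0.063) and HXK1 (1.93 ± 0.48, adjusted p = 0.089).

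Lists of phosphate, nitrogen, Gcn4, sulfur and vacuole genes gave 1 or 2 calls each, while the iron and zinc lists gave 0. PHO89, a sodium-phosphate importer, rose from 19.7 and 12.9 to 50.2 and 106.0, and PHO5, the secreted acid phosphatase, from 85.7 and 67.2 to 253.7 and 304.1. These were 2 of 18 tested phosphate-regulon genes (background 1.04% higher). Of the 20 on the array 16 lay above wild type (median 0.71, 0.34 and 0.95 in the pairs). PUT1, proline oxidase, rose by 1.58 ± 0.33 and DAL4, the allantoin permease, by 1.49 ± 0.28, among 22 nitrogen catabolite genes with a median of 0.08. ARG3, an arginine synthesis enzyme, was the 1 call among 38 Gcn4-controlled genes, at 15.6 and 16.1 against 67.8 and 112.0. JLP1, which frees sulfite from sulfonates, did not leave the floor in wild type and reached 33.2 and 39.8 in not1-2, at least 21.1-fold higher, with a change of 4.40 that became 2.37 with the floor at the 25th percentile, while the 29 sulfur genes had a median of -0.07. PRB1, a vacuolar protease, rose from 101.5 and 198.7 to 454.4 and 477.4 (3.28-fold). The medians of the nitrogen, Gcn4 and sulfur lists lay within 0.1 of 0.

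The antioxidant list split in the same way. SRX1, sulfiredoxin, which restores oxidised peroxiredoxins, rose from 105.8 and 48.8 to 861.7 and 867.1, 12.03-fold (3.59 ± 0.41, adjusted p = 0.0082). Of the 24 redox genes 16 were below wild type, with a median of -0.36, and SRX1 was the only call among 23 tested. On the spt3 and double-mutant arrays SRX1 lay between 58.1 and 134.2.

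**Figure D4:**
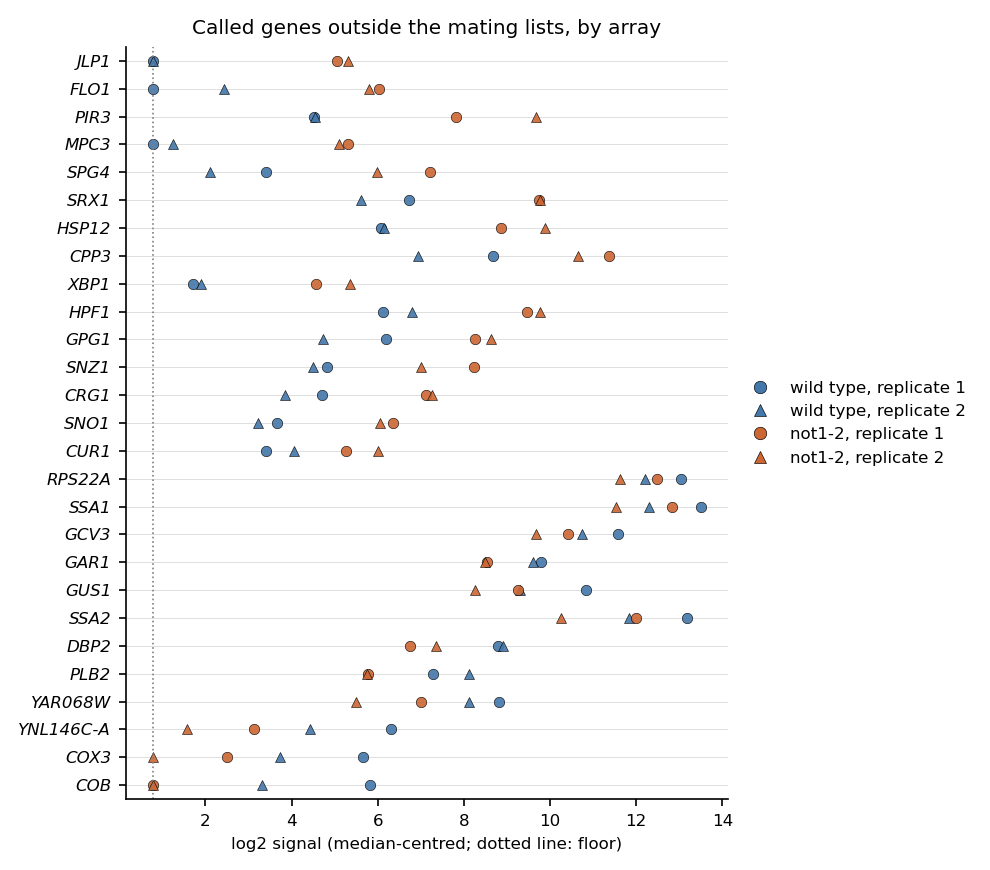
Log2 signals of called genes outside the mating lists on the 2 wild-type and 2 not1-2 arrays, ordered by change: the highest genes that are described here, CUR1, and the lower genes that are protein-coding and named by the selection rule. In SSA1, SSA2 and RPS22A the strains overlap, since replicate 1 is brighter than replicate 2 in both, while the other genes shown have separate strains.

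Heat shock genes moved both ways with 3 calls among 29 tested (background 1.99% in either direction). CUR1, a factor that sorts misfolded proteins, rose from 10.6 and 16.7 to 38.6 and 63.9 (1.90 ± 0.30). SSA2, a cytosolic Hsp70 chaperone present in unstressed cells, fell from 9281 and 3625 to 4112 and 1227, by -1.37 ± 0.22, and its close relative SSA1 from 11593 and 5076 to 7304 and 2985, by -0.72 ± 0.11. SSA1 and SSA2 are near-identical in sequence, so their probe sets may read each other's RNA. In both, not1-2 replicate 1 was brighter than wild-type replicate 2, so the strains overlap and the call rests on the pairing. The list median was 0.13, with 0.30 and -0.20 in the pairs.

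tRNA probe sets were lower nearly throughout. The annotation names a tRNA gene for 90 tested probe sets, of which 86 lay below wild type, 85 of them in both pairs. Their median signal was 151 and 68.9 on the wild-type arrays and 44.5 and 24.5 on the not1-2 arrays, and the median change was -1.58 (-1.65 and -1.39). Of the 90, 67 (74.4%) were at least 2-fold lower in both pairs, against 3.63% of all 7043 tested, and 12 (13.3%) were called lower, against 0.951%. Of 52 snoRNA probe sets 35 lay below wild type, 7 (13.5%) at least 2-fold in both pairs, with medians of -0.74 and 0.21 in the pairs and 0 calls. The single probe sets of the RNase P RNA and the telomerase RNA were at -1.46 and -1.96 and were not called.

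SUF10 had the largest fall, from 386.1 and 143.8 to 19.5 and 6.11 (-4.43 ± 0.92, adjusted p = 0.048). YNCK0012C went from 259.2 and 179.1 to 23.6 and 30.9 (-3.00 ± 0.38), YNCE0013W from 253 and 158.7 to 30.2 and 26.1 (-2.83 ± 0.36) and SUP16 from 194.6 and 100.7 to 30.5 and 11.3 (-2.92 ± 0.48), all 3 with separate strains. TGA1 and TRR4 changed by -2.1997 ± 0.30 and -2.21 ± 0.35, and YNCG0028W and YNCM0020W by -3.11 ± 0.57 and -2.76 ± 0.52. tRNA genes come in families of near-identical copies, and 53 of the 90 probe sets lay within 0.3 of another on the log2 scale on each of the 4 arrays, so the 90 are not 90 separate measurements.

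Mature tRNAs carry no poly(A) tail, and the labels describe the RNA as polyA RNA. The labels do not say how tRNA came to be labelled. The wild-type tRNA median itself differed by over 2-fold between replicates. The spt3 arrays gave tRNA medians of 40.2 and 66.9 and the double-mutant arrays 102.7 and 30.8, so in replicate 2 the wild-type and spt3 medians were near equal. Without the replicate block, and without any 1 of the 4 arrays, 0 tRNA probe sets passed limma's test, with 20 to 42 at an unadjusted p under 0.05. The ACT1 covariate left 5 calls, and leaving out an spt3 array gave 47.

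**Figure D5:**
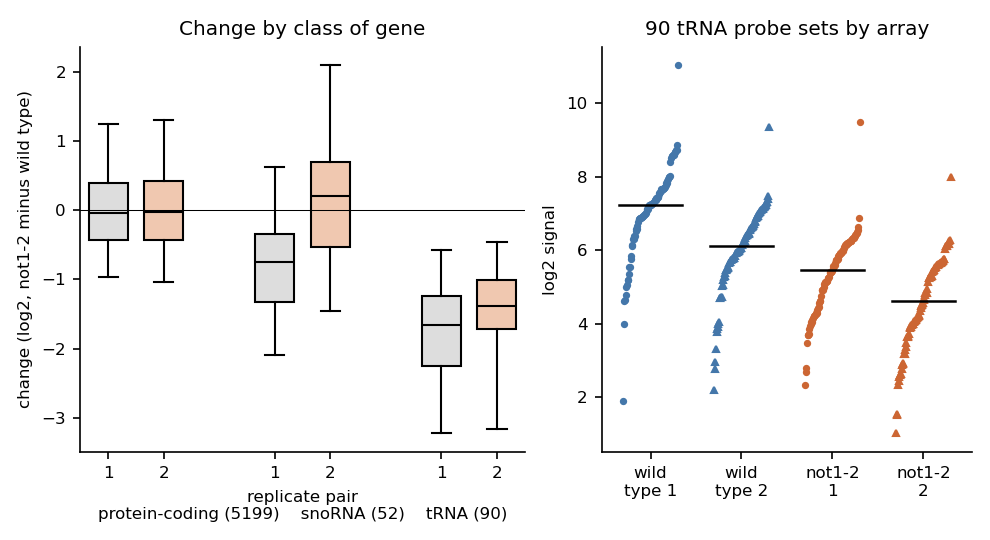
Left, change (log2, not1-2 minus wild type) of protein-coding, snoRNA and tRNA probe sets in each replicate pair, with boxes from the first to the third quartile, the median as a line and whiskers at the 5th and 95th percentiles. Right, log2 signals of the 90 tested tRNA probe sets on each of the 4 arrays, each sorted, with the array's median as a bar: the tRNA medians are 151 and 68.9 in wild type against 44.5 and 24.5 in not1-2.

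Genes of protein synthesis lay below wild type by small amounts. All 18 aminoacyl-tRNA synthetase genes, whose enzymes load tRNAs with amino acids, were below wild type, 16 of them in both pairs, with a median of -0.65 (-0.71 and -0.47). GUS1, the glutamyl-tRNA synthetase, was the 1 call, falling from 1836 and 635.1 to 607.8 and 306.7 (-1.32 ± 0.25, adjusted p = 0.038). Of 80 cytosolic ribosomal protein genes 75 were below wild type, with a median of -0.36 (-0.60 and -0.18). This direction depends on the scaling, since quantile normalization gave a median of 0.04. RPS22A, the 1 call, fell by 0.57 on the log2 scale, from 8411 and 4736 to 5685 and 3159, with overlapping strains, and its close copy RPS22B may share its probe signal.

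Ribosome assembly gave 2 lower calls among 119 tested genes (background 0.951%). Of 119 genes 87 were below wild type (median -0.27, or -0.41 and -0.13). DBP2, an RNA helicase that also acts in mRNA export and decay, gave 440.7 and 481.1 against 108.4 and 162.6 (-1.79 ± 0.30, adjusted p = 0.026). GAR1, a core protein of the H/ACA snoRNPs that modify ribosomal RNA, fell from 881.1 and 776 to 371.5 and 359.7, 2.26-fold. GCV3, the H protein of glycine cleavage, which feeds one-carbon units, fell from 3076 and 1716 to 1368 and 812.1, the 1 call among 18 genes of purine synthesis and one-carbon metabolism (median -0.30). Of 20 RNA polymerase I and III genes 0 were called; RPO31 and RPA12, subunits of the enzymes that make tRNA and ribosomal RNA, had the smallest p (-0.84 ± 0.30 and -0.82 ± 0.31).

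Further lower calls belong to no list, and the following were picked and grouped after their values were seen. The nucleoside monophosphate kinases URA6, ADK1 and GUK1, which make UDP or CDP, ADP and GDP, changed by -1.89, -1.45 and -1.42. URA6 gave 1342 and 926.8 in wild type against 368.5 and 247.4, and ADK1 1594 and 1167 against 541.4 and 461.1, with separate strains in both. ADO1, adenosine kinase, and GUA1, which makes GMP, were also lower, at -0.80 ± 0.16 and -1.15 ± 0.23.

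The next 4 genes were also picked after their values were seen. HYP2, which encodes the translation factor eIF5A, fell from 8318 and 3030 to 4057 and 1305. Its not1-2 replicate 1 was brighter than its wild-type replicate 2, so the strains overlap and the call rests on the pairing. LIA1, the enzyme that completes the hypusine residue of eIF5A, fell from 1185 and 671.7 to 433.3 and 320.5. ANB1, a close copy of HYP2 whose probe set may read the same RNA, also lay lower without a call, as given below. EFB1, an exchange factor for the elongation factor eEF1A, changed by -1.11 ± 0.20, and ZUO1, a chaperone of the ribosome exit, by -1.08 ± 0.22. CBR1, a cytochrome b reductase, had a large change for a bright gene, from 2290 and 1290 to 601.7 and 413.5 (-1.78 ± 0.20, adjusted p = 0.0082). The listed translation factors themselves, 13 genes, had 0 calls and a median of -0.10. PLB2, a phospholipase B, fell from 154.6 and 276.3 to 55.0 and 54.2, and YAR068W, of unknown function, from 452 and 278.6 to 128.4 and 45.1.

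Among the higher calls in no list, CPP3 gave 406.2 and 122.4 in wild type against 2627 and 1604 in not1-2 (3.20 ± 0.38), and GPG1, a partner of the glucose-sensing G protein Gpa2, 73.0 and 26.4 against 303.8 and 399.3. The following were picked after their values were seen. GID11, a substrate receptor of the ubiquitin ligase that degrades gluconeogenic enzymes, rose by 2.66 ± 0.49 and CYB2, the lactate dehydrogenase of mitochondria, by 1.79 ± 0.36. PLN1, a lipid droplet protein, went from 58.2 and 39.2 to 220.2 and 323.3, and YPC1, a ceramidase, rose by 1.68 ± 0.34. ARO9, an aromatic aminotransferase, rose from 42.6 and 88.1 to 269.9 and 345.6. DAK2, dihydroxyacetone kinase, rose from 17.1 and 8.26 to 83.4 and 38.6. All had separate strains, as had 72 of the 73 higher calls, which the choice by the test favours. CPP3 lay between 88.7 and 296 on the spt3 and double-mutant arrays and HPF1 between 42.8 and 110.1, while PLN1 lay between 189 and 421.9.

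Genes of the mitochondrial genome were lower in part. COB, cytochrome b, gave 56.8 and 9.99 in wild type and was at the floor on both not1-2 arrays, at least 13.8-fold lower (adjusted p = 0.024). COX3, a cytochrome oxidase subunit, fell from 50.3 and 13.4 to 5.68 and the floor (-3.05 ± 0.49). On the probe sets tested the other genes did not follow as one. COX2 and ATP6 were lower without a call, at -1.67 ± 0.50 and -1.95 ± 0.60. The tested COX1 probe set lay above wild type, at 303.2 and 131.2 against 359.8 and 494.8. OLI1 gave 135.4 and 598.2 against 48.7 and 775.3. Dimmer COX1 probe sets that were not tested lay below wild type, at -2.17 and -1.95, the latter with 0.21 in pair 2. The direction of COX1 thus depends on the probe set. Of 6 tested genes 2 were called, and the list median was -1.51 in pair 1 and -0.35 in pair 2. Fewer mitochondrial genomes per cell and less RNA from each cannot be told apart here, and neither gene was called without the replicate block, with the ACT1 ratio as a covariate, with the floor at the 25th percentile or without any 1 of the 4 arrays. The labels describe polyA RNA and do not say how mitochondrial RNA came to be labelled. A difference in its recovery or labelling thus cannot be told apart from fewer genomes or less RNA either. The COB signal of wild type was itself several times brighter on replicate 1, the array with the highest ACT1 ratio.

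Several groups gave 0 calls in limma's test. They are the proteasome (34 genes, median 0.17), the mitochondrial ribosome (66, median 0.13), iron uptake (median 0.05), zinc (-0.21), the unfolded protein response (-0.15) and meiosis (-0.14). Over all 7043 probe sets 1262 had an unadjusted p under 0.05. The 4 histone genes with a probe set of their own all lay below wild type in both pairs (median -0.60), with HTB2, a histone H2B, at 487.2 and 912.2 against 392 and 381.1 (adjusted p = 0.23). ACT1 gave 5196 and 2440 against 3419 and 1966 (-0.46 ± 0.16, adjusted p = 0.18), with overlapping strains.

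Each replicate pair also held changes of its own. On the replicate 1 arrays 519 of 7043 probe sets were at least 2-fold higher in not1-2 and 609 lower, and on the replicate 2 arrays 622 and 591. In both pairs 232 were higher, which is 44.7% of the higher ones of pair 1 and 37.3% of those of pair 2, and 256 were lower, 42.0% and 43.3%. Opposite 2-fold changes were rare, at 6 and 7 probe sets. The changes of the pairs, which share no array, correlated across probe sets with r = 0.58 and Spearman's rho = 0.49, and 66.7% had the same sign. Genes are not independent replicates, so this describes these arrays.

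Many changes were held by 1 pair alone. In pair 1, 148 probe sets were at least 2-fold higher and 173 lower while the other pair differed by under 0.5 (log2), and in pair 2 there were 210 and 179. YCT1, a cysteine transporter, changed by 3.25 in pair 1 and -0.31 in pair 2, with signals of 2.20 and 20.3 in wild type against 20.9 and 16.3. DML1, LEE1 and FDH1 followed the same course, at 2.80, 2.77 and 2.65 in pair 1 and between -0.37 and 0.40 in pair 2, and YEL025C was at -2.57 in pair 1 and -0.37 in pair 2. In 4 of these 5 the outlying array was wild-type replicate 1, which had the highest ACT1 ratio, and in YEL025C it was not1-2 replicate 1. In pair 2 alone GAC1, a regulator of glycogen synthesis, changed by 3.18 against 0.46, and SNR14, the U4 spliceosomal RNA, by 3.10 against 0.08. YNL277W-A changed by 2.70 against -0.09, and YMR317W and SPO23 by -2.60 and -2.46 against 0.44 and -0.23. None of these 10 genes was called, which their choice by a small change in the other pair favours.

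Of the 47 lists with at least 5 measured genes outside the mating lists, 15 had medians above 0 in both pairs, 12 below 0 in both and 20 medians of opposite sign or at 0. The widest gap was in the subtelomeric families PAU and COS, at 1.71 in pair 1 and -0.03 in pair 2, where PAU7 gave 29.5 and 32.4 against 230.2 and 46.7. Not every member had this gap. COS6 gave 103.5 and 194.4 against 347.5 and 589.9, higher by 1.75 and 1.60 in the pairs, without a call. Of the 18 on the array 7 were above and 1 below wild type in both pairs (30.0% and 35.4% of all genes). Anaerobic wall mannoproteins had medians of 0.18 and -1.14, with TIR1 at 6323 and 3668 against 4401 and 581.2. ANB1, the hypoxic form of eIF5A, gave 4366 and 1588 against 1154 and 104.6 (-2.92 ± 0.85, adjusted p = 0.14). The G2/M genes (0.33 and -0.42) and G1/S genes (0.15 and -0.38) also changed sign between the pairs, with 0 calls in each.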

How the data were processed

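The deposited values are linear intensities, with 1 intensity for each probe set of an array, of biotin-labelled polyA RNA extracted with acid phenol, per the labels. Their software is not given in the sources used. Of 9335 probe sets 60 controls were left out, and 6504 of the others named 1 gene. Each array was centred on its median, since log2 medians spanned 0.419, and centring removed a mean shift of 0.13 between the strains. Values under the 10th percentile, 1.72, were set to it. Probe sets whose highest strain mean exceeded the 25th percentile, 7.02, were kept (7509), and the brightest stood for each gene, which left 7043.

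Strain means and the replicate number as a block were fitted to all 8 arrays with limma 3.58.1 in R 4.3.3, with moderated statistics and an intensity trend. The labels share replicate numbers but name no batch. Deviations of same-numbered arrays correlated in all 6 strain pairs (r from 0.188 to 0.739, 0.739 for wild type and not1-2). The fit was tested on simulated data.

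The comparison, the 52 gene lists and the tests were chosen with earlier results of these data known. Named genes were the 15 highest and 15 lowest called outside the mating lists, up to 4 called members of a list or else the 2 with the smallest p, all mating-type and Ccr4-Not genes, SPT3, TRP1, ACT1 and, per pair, the 5 largest changes that the other pair lacked (under 0.5). Some genes that the rule picks are not reported here. Alternatives changed the block, arrays, scaling, floor, filter, trend, covariate, probe set choice and threshold.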

Additional observations from a re-analysis of the deposited data

How the results depend on the processing

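The count of 140 called probe sets depended on the fit more than on the scaling. It was 3 with no replicate block, 626 on the 4 arrays alone with the block (136 shared), 74 with the ACT1 ratio as a covariate, 27 with the floor at the 25th percentile, 64 with a mean above the 50th percentile, 73 with no intensity trend and 283 at a threshold of 0.1. With no filter limma called 0, with 1420 at an unadjusted p under 0.05. Leaving out 1 array gave 3 to 310 calls, on the assumption that a strain's single remaining array varies as the other strains do. MFA1 and MFA2 were called without any 1 of the 4 wild-type and not1-2 arrays, and MF(ALPHA)1 in 3 of those 4. No centring gave 132 calls, 72.0% of them higher, and quantile normalization 106, 66.0% higher, against 52.1%. Of the 65 named called genes 0 changed sign where they had a value, which 40 had with a mean above the 50th percentile. Of the 65, 3 stayed called with no block, 18 with the higher floor, 40 with the covariate, 0 with no filter and 3 to 5 without 1 of the 4 arrays. Some uncalled genes did change sign, both near 0 and farther off. In the main fit YCT1, DML1 and YMR317W, which did so, were at 1.47, 1.21 and -1.08. Without centring CDC39 was 0.0766, CDC36 0.128 and CCR4 0.0025. With quantile normalization CDC36 was 0.0085 and ACT1 0.0333, and with the covariate NOT3 was -0.0739 and POP2 -0.0321. With single arrays left out CDC39 ranged from -0.383 to 0.267, CDC36 from -0.294 to 0.282, NOT3 from -0.215 to 0.451, CCR4 from -0.399 to 0.136, POP2 from -0.114 to 0.12 and CAF40 from -0.591 to 0.0204. YCT1 ranged from -0.217 to 3.15 and DML1 from -0.385 to 2.81, each lowest without wild-type replicate 1, and YMR317W from -2.30 to 0.146, highest without not1-2 replicate 2. The cause of these shifts was not tested. Probe sets near the floor have only bounds, and 2 arrays a strain limit all precision.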
